A study of Mus musculus with 2 samples.

Results

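The genes of the aminoacyl-tRNA synthetases, the enzymes that attach each amino acid to its transfer RNA, were followed in liver of mouse embryos at embryonic day 11.5. The 36 genes were listed by symbol, 20 for cytosolic and 16 for mitochondrial enzymes, and all were found by identifier among 43346 measured genes, 21474 of them protein-coding. RNA was measured in 2 libraries, 1 from each of 2 biological replicates of strain B6NCrl, with no treatment or second condition. The labels name the assay as single cell RNA-seq and also as total RNA-seq, the material was tissue pooled over embryos, and the values are read here as those of bulk RNA. Livers were pooled from male and female embryos, 109 of them for replicate 1, and 1 cell-equivalent of RNA in the size range labelled as over 200, extracted with the mirVana kit, entered each SmartSeq library, a protocol that copies polyadenylated RNA and amplifies it by PCR. With 1 group of 2 libraries no test between conditions exists, and every difference between groups of genes or between libraries is given as a size only.

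A synthetase activates its amino acid with ATP and loads it onto the matching tRNA, which carries it to the ribosome. Cytosolic ribosomes and the ribosomes inside mitochondria need separate sets of loaded tRNAs, and most mitochondrial enzymes come from nuclear genes of their own, marked by the ending 2. The enzymes fall into class I and class II by the fold of their catalytic domain, and in mammals several cytosolic enzymes are held in a multisynthetase complex by scaffold proteins. The liver of this stage is both a forming organ and a site of blood formation, and both activities draw on protein synthesis.

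The total expected count, an estimate of reads assigned to genes, was 33289699 in replicate 1 and 32607453 in replicate 2. Levels are in TPM, a relative abundance that corrects for length and so allows genes to be compared. All 6 hepatoblast markers and all 6 erythroid markers listed were present in each library at 1 TPM or more. For markers of other cell types, summed TPM differed between the libraries in some lists and little in others, and sums can hide opposite changes. Endothelial markers summed to 88.3 TPM in replicate 1 and 89.6 in replicate 2, and megakaryocyte markers to 916 and 1160. Lyve1 had 44.58 and 22.61 TPM, while Esam had 23.16 and 36.3 and Egfl7 20.6 and 30.68. Itga2b was lower in replicate 2, while Pf4 and Ppbp were higher. Neural markers summed to 8.25 and 16.6 TPM. Nearly all of this was Stmn2 in replicate 1, at 8.19 and 0.05 TPM, and Tubb3 in replicate 2, at 0.06 and 16.59. Heart muscle markers summed to 6.69 TPM in replicate 1 and 205 in replicate 2, mesenchymal markers to 139 and 353, and macrophage markers to 388 and 163. Their part in the differences between libraries given below was not tested, and in bulk RNA fewer cells of a type and less RNA per cell cannot be told apart.

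All 20 cytosolic genes were detected, which means 1 TPM or more, in both libraries, against 8 of 16 mitochondrial genes. Of the protein-coding genes, 27.3% reached that level in both. Another 5 mitochondrial genes, Hars2, Mars2, Nars2, Vars2 and Wars2, were detected in replicate 1 only, which held for 9.68% of protein-coding genes. Detection in replicate 2 only held for 0 synthetase genes and for 7.07% of protein-coding genes. The other 3, Aars2, Cars2 and Sars2, stayed under the threshold in both libraries. Of the protein-coding genes detected in either library, 62.0% were detected in both.

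Synthetase transcripts took nearly the same share of the RNA in each library, 0.277% of all TPM in replicate 1 and 0.278% in replicate 2. The cytosolic genes took 0.224% and 0.207%, a mean of 0.215% ± 0.0117 (SD, n = 2). The mitochondrial genes took 0.0536% and 0.0711%, a mean of 0.0623% ± 0.0124 (SD, n = 2). Cytosolic transcripts therefore exceeded mitochondrial ones 4.17-fold in replicate 1 and 2.91-fold in replicate 2. Without Lars2, described below, the ratios were 6.47 and 6.08.

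The median cytosolic gene stood at 77.9 TPM in replicate 1 and 95.4 in replicate 2. Over the 5870 protein-coding genes detected in both libraries, the median was 35.3 TPM and 37.2 TPM. The median mitochondrial gene stood at 17.7 and 13.9 TPM. On the log2(TPM + 1) scale, which compresses low values, the cytosolic median lay above the mitochondrial one by 2.08 in replicate 1 and 3.90 in replicate 2. Without Lars2 the differences were 2.16 and 6.04. With Lars2 kept, the mean difference of 2.99 fell to 1.73 when genes averaging under 1 TPM were left out. The sets overlapped: 4 mitochondrial genes in replicate 1 and 8 in replicate 2 exceeded the lowest cytosolic gene.

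**Figure D1:**
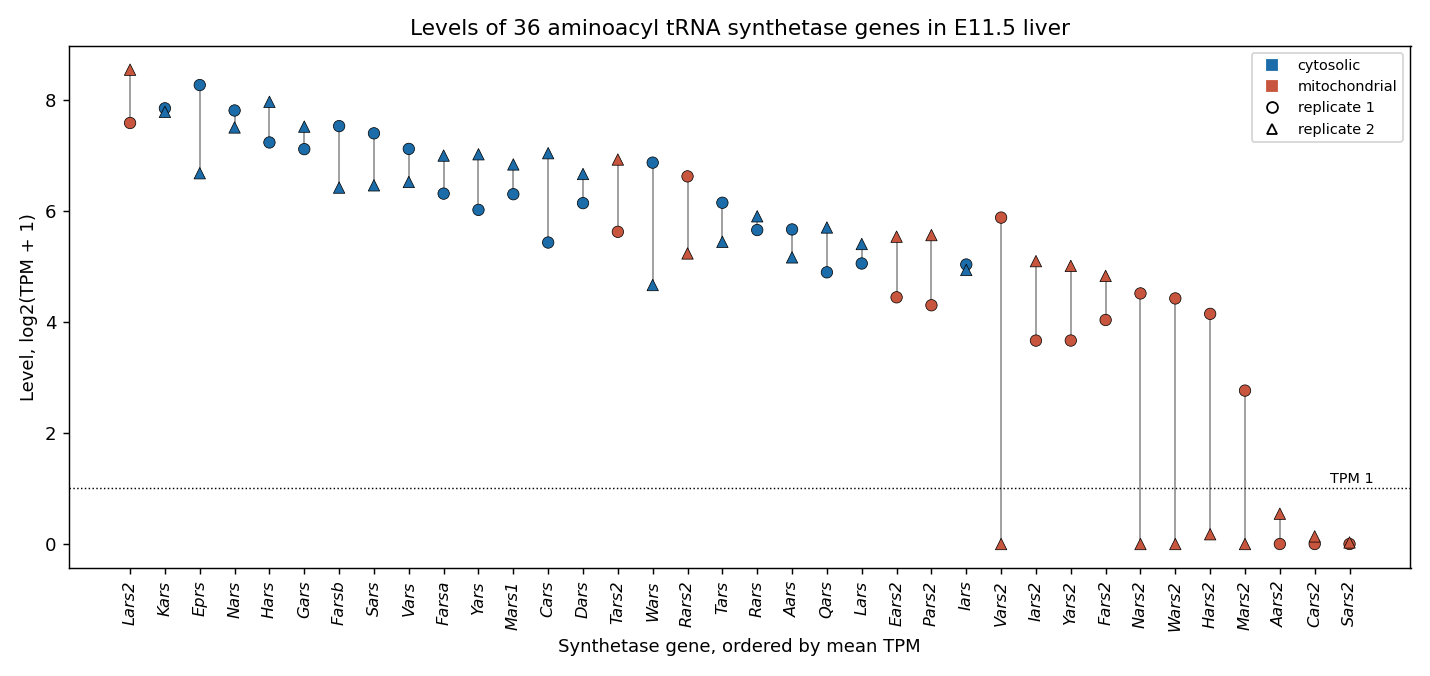
Level of each of the 36 synthetase genes in each library, as log2(TPM + 1), ordered by mean TPM, with cytosolic genes in blue and mitochondrial genes in red, circles for replicate 1, triangles for replicate 2 and a dotted line at 1 TPM. All 20 cytosolic genes lie at or above 24.31 TPM in both libraries, while mitochondrial genes run from 0 to 370.62 TPM.

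Within the cytosol, the 8 enzymes of the multisynthetase complex covered a wide range of levels. Eprs, a fused enzyme that loads both glutamate and proline (chromosome 1, 185363044 to 185428360, plus strand, mm10), stood at 305.63 TPM in replicate 1 and 101.11 in replicate 2. Kars, the lysine enzyme (chromosome 8, 111993443 to 112011323, minus strand), stood at 228.38 and 218.54 TPM. Kars was thus the steadier of the pair, at 223 ± 6.96 TPM (SD, n = 2). By TPM of the whole gene, Kars was the highest of the complex in replicate 2 and Eprs in replicate 1. On transcripts annotated as coding, Eprs had 120.84 and 90.91 TPM and Kars 228.38 and 218.54, so Kars was above Eprs in both libraries. The Kars gene also encodes the mitochondrial lysine enzyme, by alternative splicing.

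The other 6 complex enzymes stood lower. The methionine enzyme Mars1 had 77.58 and 112.93 TPM, and the aspartate enzyme Dars had 69.29 and 100.14 TPM. The arginine enzyme Rars followed at 49.25 and 58.66 TPM. The leucine enzyme Lars, the isoleucine enzyme Iars and the glutamine enzyme Qars were the lowest. Lars had 32.10 and 41.22 TPM, Iars 31.68 and 29.54, and Qars 28.65 and 50.89. The levels of these 3 lay close together in replicate 1, and Iars was the lowest of the complex in replicate 2. Across the 8 enzymes the order of the libraries gave a Spearman rho of 0.857 (n = 8 genes from the same 2 libraries, a description only), and across all 20 cytosolic genes it was 0.495 (n = 20).

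The 3 scaffold proteins of the complex were detected in both libraries. Aimp1 had 74.4 and 87.9 TPM, Aimp2 had 80.8 and 99.9 TPM, and Eef1e1, the smallest of the scaffold proteins, had 230 and 144 TPM. The median complex enzyme stood at 59.3 TPM in replicate 1 and 79.4 in replicate 2. That was below the median of the cytosolic enzymes outside the complex, which was 126 and 108 TPM.

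Outside the complex, Nars, Hars and Gars had the highest mean levels. Nars, the asparagine enzyme (chromosome 18, 64499647 to 64516652, minus strand), had 222.30 TPM in replicate 1 and 179.71 in replicate 2. Hars, the histidine enzyme (chromosome 18, 36766528 to 36783205, minus strand), had 148.83 and 247.87 TPM. Hars was the highest cytosolic gene of replicate 2. Gars, the glycine enzyme, which serves both compartments from a single gene (chromosome 6, 55038007 to 55079500, plus strand), had 136.83 and 181.61 TPM. Sars, the serine enzyme (chromosome 3, 108424865 to 108445209, minus strand), had 166.91 and 86.80 TPM. Nars and Sars were higher in replicate 1, Hars and Gars in replicate 2.

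Phenylalanine is loaded in the cytosol by an enzyme of alpha and beta subunits, encoded by Farsa and Farsb. Farsa had 78.15 TPM in replicate 1 and 126.26 in replicate 2. Farsb had 182.74 and 84.36 TPM. The subunits thus exchanged order: Farsa stood at 0.428 times Farsb in replicate 1 and 1.5 times in replicate 2.

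The remaining cytosolic genes were Vars for valine at 137.29 and 90.56 TPM, Tars for threonine at 69.63 and 42.37, and Aars for alanine at 49.62 and 34.74. All 3 were higher in replicate 1. Yars, for tyrosine, had 63.60 and 128.36 TPM. Cars, for cysteine, had 42.0 and 130.11 TPM. Wars, for tryptophan (chromosome 12, 108860030 to 108894174, minus strand), had 115.50 TPM in replicate 1 and 24.31 in replicate 2. Among the cytosolic genes, Wars, Eprs and Cars differed most between the libraries in TPM. Differences past 2-fold were common among all genes, as given below. Class II cytosolic enzymes had a median of 143 and 113 TPM, and class I enzymes one of 56.4 and 74.6 TPM. Eprs, which holds a domain of each class, was counted in class I.

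A number of synthetase genes are known targets of Atf4, the transcription factor of the response to amino acid shortage, which binds the amino acid response element with C/EBP partners. All 12 of the known targets listed reached 1 TPM in each library, and their lowest values were 31.68 TPM in replicate 1 and 24.31 in replicate 2. These 12 are all cytosolic genes, and all 20 cytosolic genes reached 1 TPM in both libraries, so detection does not set the targets apart. The median target stood at 73.605 TPM in replicate 1 and 93.955 in replicate 2, beside 77.9 and 95.4 for all cytosolic genes. The element was searched as TGATGNAAT, or ATTNCATCA on the other strand, in 300-base windows reaching from 250 bases before to 50 after each start site (RefSeq, GRCm38.p6). Of the 36 genes 27 had a window, and 3 of these held a match, against 0.965% of the 32851 windows of all genes, or 1.08% of 27025 genes. The matches in Gars and Iars, both known Atf4 targets, are shown as examples of the element as it stands in this gene family. Capitals mark the match, and each line is read on the plus strand, at chr6:55037960-55037988 for Gars and chr13:49682126-49682154 for Iars.
Gars: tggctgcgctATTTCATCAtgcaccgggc
Iars: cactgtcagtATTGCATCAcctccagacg

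Gars and Iars held different forms of the 9-base motif. Of the known targets, 8 had a window, and all 3 matches lay among these 8. Matches were found in 0 of 14 mitochondrial genes with a window and in 0 of 18 genes of the amino acid response with one. With 1.08% of all genes holding a match, a count of 0 among so few genes is near that share. Other forms of the element, and sequence outside the windows, were not searched, so these genes are not shown to lack it. A match is a run of letters and not a measured binding site.

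These genes were not the highest of the family: Gars stood at 136.83 and 181.61 TPM and Iars at 31.68 and 29.54. Of 20 genes of the Atf4 response listed, 12 were detected in both libraries. Asns, the asparagine synthetase that makes the amino acid itself, had 533 and 234 TPM. The serine synthesis enzymes Phgdh and Psat1 had 393 and 436 TPM, and 293 and 92.6 TPM. Eif4ebp1, a repressor of cap-dependent translation, had 230 and 195 TPM. Atf4 itself had 141 and 189 TPM. Chac1 and Vldlr were without a read in either library.

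Lars2 was the highest mitochondrial gene in both libraries. It encodes the mitochondrial leucine enzyme (chromosome 9, 123366927 to 123462666, plus strand). It had 190.03 TPM in replicate 1 and 370.62 in replicate 2, a mean of 280 ± 128 (SD, n = 2), from 21244 and 41178 reads. This was 35.5% of mitochondrial synthetase TPM in replicate 1 and 52.1% in replicate 2. The next mitochondrial gene lay 1.96-fold lower in replicate 1 and 3.09-fold lower in replicate 2. In replicate 2 Lars2 exceeded all 35 other synthetase genes. Of its annotated sequence, 0.869% of 31-base stretches also occurred in another gene.

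Next in order were Rars2 and Tars2, the mitochondrial arginine and threonine enzymes. Rars2 had 97.14 TPM in replicate 1 and 36.53 in replicate 2. Tars2 had 48.14 and 120.13 TPM. Each was second to Lars2 in a different library, Rars2 in replicate 1 and Tars2 in replicate 2. Both belong to the 8 mitochondrial genes detected in both libraries.

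The other 5 of these 8 were lower in replicate 1 than in replicate 2. Ears2 for glutamate had 20.71 and 45.27 TPM, Pars2 for proline 18.66 and 46.19, and Fars2 for phenylalanine 15.36 and 27.35. Yars2 for tyrosine had 11.66 and 31.13 TPM, and Iars2 for isoleucine had 11.65 and 33.10. In replicate 2 these 5 lay between 27.35 and 46.19 TPM.

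The genes detected in replicate 1 only went from moderate levels to none or almost none. Vars2, the mitochondrial valine enzyme (chromosome 17, 35655634 to 35667592, minus strand), stood at 57.68 TPM in replicate 1, with 2152 reads, and was without a read in replicate 2. A count of 0 allows up to 3 reads, and against that limit its part of all reads was at least 703-fold higher in replicate 1. Nars2, for asparagine, had 21.79 TPM from 1586 reads against no read, at least 518-fold higher. Wars2, for tryptophan, had 20.41 TPM from 742 reads against no read, at least 242-fold higher. These limits cover read counting only, since molecules were copied by PCR.

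Mars2, for methionine, had 5.78 TPM from 1912 reads in replicate 1 and a single read in replicate 2. Hars2, for histidine (chromosome 18, 36783008 to 36792562, plus strand), had 16.66 TPM from an estimated 1341.32 reads and 0.13 TPM from 3.1. Hars2 and Hars overlap by 198 bases on opposite strands, and the counting is not stated to use strand, so reads of that overlap cannot be told apart. Aars2 had 0 and 44 reads, Cars2 0 and 5, and Sars2 0 and 1, at no more than 0.46 TPM in either library.

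Among all genes, detection in both libraries was more frequent at higher levels. At a mean of 10 to 25 TPM, 57.5% of protein-coding genes were detected in both libraries, and 3 of 5 synthetase genes. At 25 to 50 TPM the share was 85.2% of genes and 6 of 7 synthetase genes. From 50 to 100 TPM it was 97.2% of genes and 9 of 9. The synthetase genes thus lay near the share of other genes of their level.

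For each amino acid with an enzyme in both compartments, the cytosolic gene was set against the mitochondrial gene, in 17 pairs. Eprs was paired with both Ears2 and Pars2, and Farsa and Farsb each with Fars2. The cytosolic gene was higher in both libraries in 13 pairs, by more than 2-fold in each, and the median difference was 3.08 in replicate 1 and 2.17 in replicate 2 on the log2(TPM + 1) scale. The largest by the mean of both libraries belonged to Sars and Sars2, at 7.39 and 6.43, a pair in which the mitochondrial gene was near 0. In replicate 2 alone the largest was Hars against Hars2, at 7.78. The steadiest was Farsa against Fars2, with both genes detected in both libraries, at 2.27 and 2.17. Yars against Yars2 followed, at 2.35 and 2.01.

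Leucine was the exception in both libraries. Lars stood at 32.10 and 41.22 TPM and Lars2 at 190.03 and 370.62, so the mitochondrial gene was 5.92-fold higher in replicate 1 and 8.99-fold higher in replicate 2. The direction depended on the library in 3 pairs. Iars exceeded Iars2 by 1.37 in replicate 1 and was lower by 0.16 in replicate 2 (log2 difference -0.16). Rars against Rars2 gave -0.97 and 0.67, and Tars against Tars2 gave 0.52 and -1.48. For these 3 amino acids the compartments could not be ordered.

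**Figure D2:**
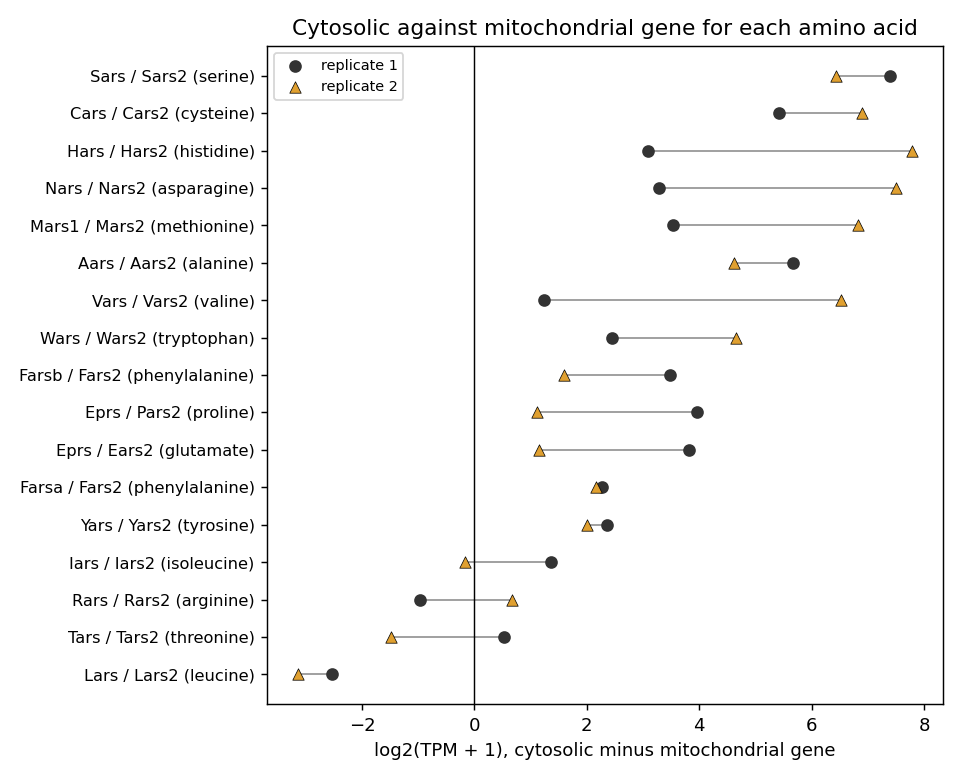
Difference between the cytosolic and the mitochondrial gene of each of 17 pairs, on the log2(TPM + 1) scale, with a point for each library and 0 meaning equal levels. Lars and Lars2 is the pair with both points below 0, and Iars, Rars and Tars have their points on opposite sides.

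The libraries were compared gene by gene as the log2 ratio of TPM + 1, replicate 2 over replicate 1, centred on its median over genes that averaged 10 TPM or more. Of 31 synthetase genes at that level, 6 were more than 2-fold higher in replicate 2 and 7 in replicate 1. Of the 6801 genes compared, 25.2% were higher in replicate 2 and 25.8% in replicate 1, and 51.1% differed in either direction, so the 13 synthetase genes do not stand above the background. Centring on the spike-in RNAs gave 2 and 10 synthetase genes, beside 19.9% and 33.0% of all genes. The median size of the difference was 0.93 for synthetases and 1.03 for all genes.

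Among cytosolic genes 4 of 20 were past 2-fold: Cars was higher in replicate 2, with a centred log2 ratio of 1.58, and Eprs (-1.61), Farsb (-1.13) and Wars (-2.23) were higher in replicate 1. Among the 11 mitochondrial genes compared, 9 were past 2-fold, and 3 of these entered the comparison through replicate 1 alone. Of all protein-coding genes, 72.0% at a mean of 10 to 25 TPM and 54.4% at 25 to 50 TPM were past 2-fold, so no excess is read from this count. Ears2, Iars2, Pars2, Tars2 and Yars2 were higher in replicate 2, by 1.07 to 1.41. Rars2, at -1.41, was higher in replicate 1, as were Nars2, Vars2 and Wars2, which had no read in replicate 2. Lars2, at 0.93, and Fars2, at 0.77, were within 2-fold. On this measure the median size was 0.64 for cytosolic and 1.32 for mitochondrial genes, which also stood at lower levels. By estimated reads in place of TPM the difference of Eprs was -0.62, within 2-fold, and that of Wars -2.03.

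**Figure D3:**
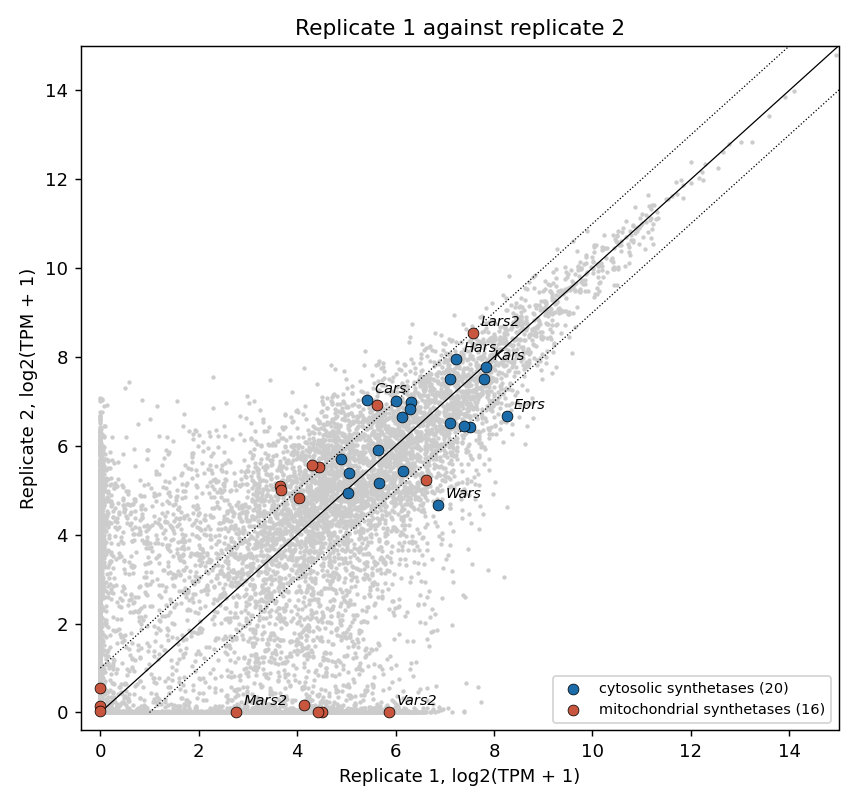
TPM of each synthetase gene in replicate 1 (horizontal) and replicate 2 (vertical), both on log2(TPM + 1) axes. Cytosolic genes are in blue, mitochondrial genes in red, and protein-coding genes with TPM above 0 in either library in grey. A solid line marks equal level, and dotted lines lie 2-fold away from it. Wars and Eprs lie on the side of replicate 1, Cars and Lars2 on the side of replicate 2, and Vars2, Nars2 and Wars2 lie at 0 in replicate 2.

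The transcript tables give the part of each gene's TPM assigned to coding transcripts and to others, such as transcripts that keep an intron. In Eprs, 39.54% of TPM in replicate 1 was on coding transcripts, against 89.91% in replicate 2. Its coding TPM was 120.84 and 90.91, so the libraries lay closer on coding transcripts than on the whole gene. Of its reads, 83.39% and 98.88% were on coding transcripts. Cars was led in both libraries by Cars-206, a transcript with a retained intron, at 41.12% and 52.14% of its TPM. In Vars the coding share was 71.99% and 38.71%, and the lead passed from Vars-201 to Vars-212, a retained-intron transcript.

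Some mitochondrial genes had little coding TPM. In replicate 1, coding transcripts of Vars2 held 16.98% of its TPM, which is 9.80 TPM, and those of Wars2 held 13.04%, which is 2.66 TPM. Synthetases under 50% coding TPM numbered 4 of 25 in replicate 1 and 2 of 22 in replicate 2, while 17.2% and 18.1% of protein-coding genes with more than 1 transcript were under it. With so few synthetase genes, no difference from those shares is read from either count. The leading transcript was the same in both libraries in 19 of 22 synthetase genes compared, and in 62.4% of 4448 genes. The exceptions were Iars, Vars and Yars2. In Kars, the leading transcript Kars-201 held 81.97% and 99.66% of TPM, and Kars-202 held 18.03% and 0.28%.

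**Figure D4:**
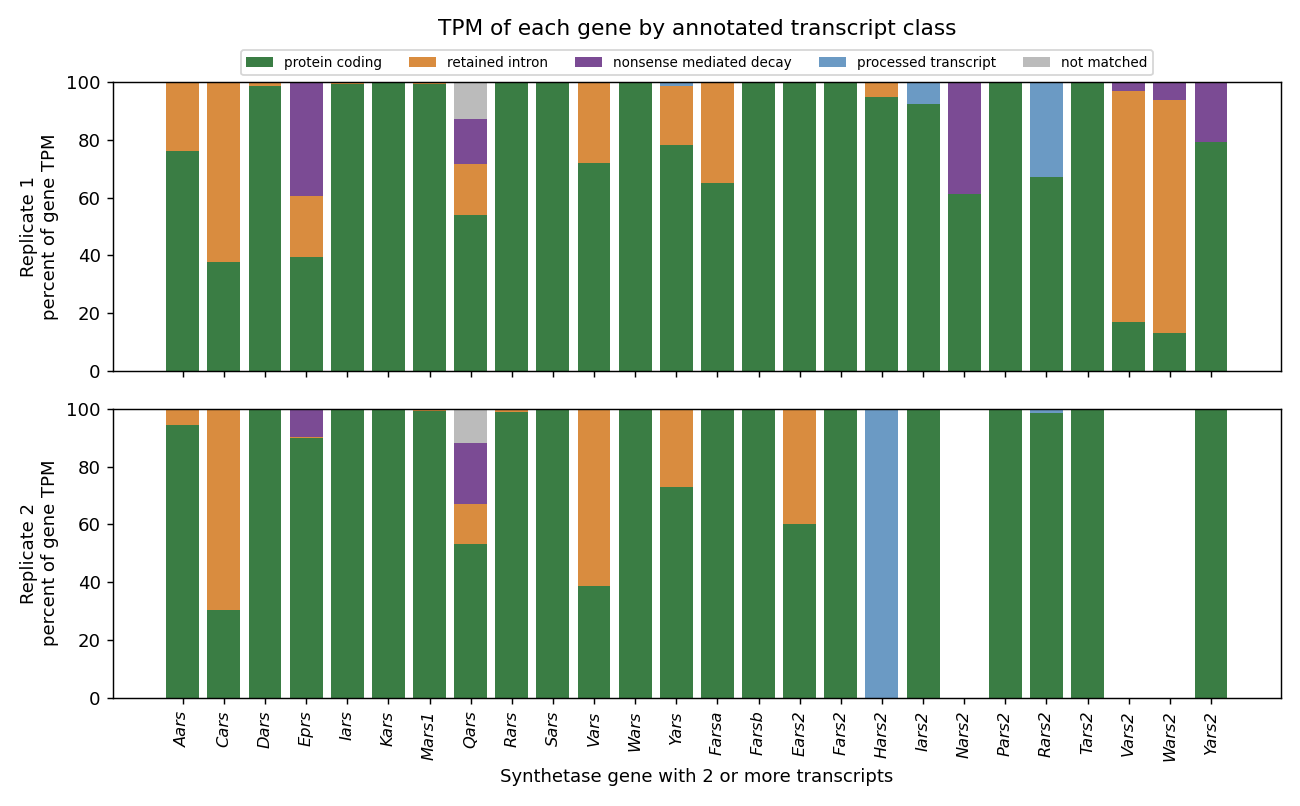
Percent of each synthetase gene's TPM on coding transcripts and on other transcript classes, in each library, for genes with 2 or more transcripts, where an empty place means no TPM. Eprs goes from 39.54% coding in replicate 1 to 89.91% in replicate 2, and Vars from 71.99% to 38.71%.

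Of 12 genes that act next to the mitochondrial enzymes, 9 were detected in both libraries, 1 in replicate 1 only and 2 in replicate 2 only. Tufm, the elongation factor that carries loaded tRNA to the mitochondrial ribosome, had 210 and 142 TPM. Its exchange factor Tsfm had 123 and 62.8 TPM, and the elongation factor Gfm1 had 21.65 and 110. No mitochondrial glutamine enzyme is listed, since in mitochondria glutamine tRNA is first loaded with glutamate and then converted by the products of Gatb, Gatc and Qrsl1. Gatb had 18.13 and 33.17 TPM, Gatc had 22.85 and 42.43, and Qrsl1 had 0.04 and 20.83. Gatb and Gatc were detected in both libraries and Qrsl1 in replicate 2 only.

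On the cytosolic side, all 5 elongation partners were detected in both libraries. The median partner stood at 492 TPM in replicate 1 and 565 in replicate 2, and the lowest value was that of the translocation factor Eef2 in replicate 2, at 224 TPM, below Hars and Lars2. Eef1a1, which delivers loaded tRNA to the ribosome, had 4090 and 3846 TPM, and its exchange factor subunits Eef1b2 and Eef1g had 739 and 515, and 492 and 614. Relatives of the synthetases were also measured. Aarsd1, an editing protein that removes serine from alanine tRNA, had 161 and 124 TPM. Dtd1, which removes D-amino acids from tRNA, had 126 and 70.3 TPM, and Prorsd1 had 83.65 and 28.35.

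Some values rest on sequence that genes share. Of the 36 genes 8 overlap another annotated gene with over 20 reads. Mars1 overlaps Ddit3 by 68 bases, Iars2 overlaps Rab3gap2 by 2034 and Wars overlaps Wdr25 by 544. In Iars 14.7% and in Aars 13.9% of 31-base stretches also occur in another annotated gene, against under 1% in 24 of the 36 genes. The shared stretches of Iars are mostly with Gm4849, and those of Aars with Exosc6, an annotated gene that overlaps its end on the same strand. Exosc6 was not among the measured genes, so no reads could be assigned to it, and the reads of Aars may include those of Exosc6. How reads from the other shared stretches were assigned is not stated, and the levels named here are uncertain to that extent.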

How the data were processed

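RNA levels came from 2 libraries of 1 group, given as tables per gene and per transcript. Per the file headers, the deposited values are expected counts (estimated reads), TPM, posterior mean TPM and FPKM, with effective lengths, credibility bounds of TPM and the percent of a gene's abundance on each transcript. The authors scaled TPM within each library, spike-ins included. The assembly is mm10 with annotation release M4 per the labels and deposited text. For the aligner and the quantification program, the name is not given in the sources used here. Symbols and coordinates were from release M21, and Mars1 is Mars there.

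Computed here, with pandas 2.3.3 and numpy 2.4.6, were shares, medians, log2 ratios with a pseudocount of 1, and motif matches. A gene was detected at a TPM of at least 1. Ratios between libraries used genes averaging 10 TPM or more, and a count of 0 was taken as allowing 3 reads (0.0901 CPM in replicate 1, 0.092 CPM in replicate 2). The ratio step was tested on simulated data. To check that they are not a library entered again, the libraries' reads were compared over 34 synthetase genes, with a chi-square per degree of freedom of 1116, which is relative to read counting error only and takes no account of PCR copies. Whether the pools came from separate litters is not stated.

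The members, lists and rules were chosen with earlier results of these data known. All 36 genes were named, and of each partner list the 3 highest by mean TPM and those without a read. Other partners named were chosen after their values were seen. Protein sequences, part of the naming rule, were not used here. Alternatives were another pseudocount, detection level, filter, estimate, centring and fold, and leaving out each library. Leaving out Lars2 or Eprs and counting coding transcripts only were chosen after seeing the data. Some items are not reported here.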

Additional observations from a re-analysis of the deposited data

How the results depend on the processing

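Of 110 alternative values for the main results, 95 moved by less than the spread between libraries or, for counts, by less than 1.5 times. With 2 libraries, the value of a single library always lies within that spread of their mean. Except for counts, leaving out a library could therefore not move a value, and the 95 is no measure of robustness. The spread between libraries is wide for the difference of medians (2.99, log2), which was 1.73 over genes averaging 1 TPM or more and 4.10 without Lars2. Without replicate 2, 13 mitochondrial genes counted as detected, and without replicate 1 8 did. The share of TPM of all synthetases was 0.274% by posterior mean TPM, 0.298% over Ensembl genes alone, 0.591% by estimated reads, 0.250% without Lars2 and 0.257% without Eprs. The cytosolic share was 0.231% over Ensembl genes alone, 0.429% by reads and 0.195% without Eprs. The mitochondrial share was 0.162% by reads and 0.0343% without Lars2, and the ratio of cytosolic to mitochondrial TPM was then 6.28. Leaving out a library gave ratios of 2.91 to 4.17, differences of medians of 2.08 to 3.90 (log2), and 14 to 15 pairs with the cytosolic gene higher. Centring on spike-ins left 2 synthetase genes of 31 higher in replicate 2, beside 19.9% of all genes compared. At 4-fold, 0 of the 31 were higher in replicate 2 and 4 in replicate 1, beside 14.5% and 16.8% of all 6801 genes compared. Neither count is read as an excess. The order reversed in 3 pairs: Iars and Iars2, between -0.16 without replicate 1 and 1.37 without replicate 2; Rars and Rars2, between 0.67 and -0.97, and 0.24 by reads; Tars and Tars2, between -1.48 and 0.52. The cause was not tested beyond the construction of each alternative. No paired analysis was possible because there is 1 group.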
